A study of Mus musculus with 4 samples.

Results

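The genes followed here encode neurotrophins and the receptors that bind them or their precursors. The rows of the deposited count matrices whose symbol is Bdnf, Ntf3, Ntrk2, Ntrk3, Ngfr, Sort1, Sorcs1 or Sorcs3 were taken, which is 8 of 32285 genes. Counts of unique molecular identifiers (UMIs, each standing for 1 captured RNA molecule) were summed per library and cell class and are given as counts scaled to 1000000 UMIs of that class (CPM). The nuclei came from the hippocampus of 2 wild-type (WT) mice and 2 heterozygous Cyfip2+/R87C knock-in (KI) littermates, which carry an Arg87Cys substitution in 1 copy of Cyfip2, a subunit of the WAVE complex that regulates actin. The mice were on a C57BL/6N background and untreated, and they were of the last age the study examined, when KI mice have had recurrent spontaneous seizures. The KI allele is present from conception in all cells, so a difference in 1 class cannot be assigned to the mutation within that class. Each library held nuclei of 1 mouse, from both hemispheres, and all 4 carried the same batch label. KI replicate 2 bears R88C in its treatment label and KI in its title, and was analysed as KI.

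Brain-derived neurotrophic factor (BDNF) and neurotrophin-3 (NT-3) are secreted by neurons as precursors that are cleaved to mature ligands. Mature BDNF signals through the receptor tyrosine kinase TrkB (Ntrk2) and NT-3 mainly through TrkC (Ntrk3), while the precursors bind the p75 neurotrophin receptor (Ngfr) together with members of the sortilin family (Sort1 and the SorCS proteins). In the hippocampus Bdnf is best known as a gene induced by neuronal activity, with a high level along the mossy fibre pathway from dentate gyrus (DG) granule neurons to mossy cells and CA3 pyramidal neurons. Sortilin and SorCS proteins also sort Trk receptors and precursors between the secretory pathway, endosomes and the cell surface.

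The genes lie on 7 chromosomes of GRCm38 (mm10). The positions are Bdnf at chr2:109674700-109727007 on the plus strand, Ntf3 at chr6:126101412-126166910 on the minus strand, Ntrk2 at chr13:58806569-59133970 on the plus strand and Ntrk3 at chr7:78175959-78738012 on the minus strand. Ngfr lies at chr11:95568818-95587735 on the minus strand and Sort1 at chr3:108284082-108361511 on the plus strand. Sorcs3 at chr19:48206025-48805505 on the plus strand and Sorcs1 at chr19:50143299-50678646 on the minus strand are 1.34 Mb apart. Ntrk3 overlaps the counted gene Gm39038 on its own strand, so reads of that overlap could be assigned to either gene.

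The 4 libraries held 12665 to 16055 barcodes and 73009975 to 80913580 UMIs. After filters, 52032 nuclei remained (14927 and 12372 in WT, 11932 and 12801 in KI), with a median of 3868 to 4699 UMIs. Pairs of libraries shared 40 to 67 barcodes (0.316% to 0.529% of the smaller library). Nuclei were clustered without the 8 genes and named from marker genes. The 14 classes tested had at least 20 nuclei in every library, and 28.0% of the nuclei stayed unnamed (19.4% and 26.4% in WT, 26.9% and 40.8% in KI). DG granule neurons made up 28.7% and 26.6% of WT nuclei and 20.6% and 17.3% of KI nuclei, and astrocytes 3.6% and 4.7% against 1.66% and 1.98%. Cyfip2 itself was at 182 and 180 CPM in WT against 172 and 171 in KI over all nuclei, which does not check the labels because the knock-in changes 1 codon. The marker list of a class was highest in that class, except that the CA3 list summed to 3288 CPM in CA3 neurons and 4273 CPM in mossy cells.

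In WT mice each gene had its own order of levels over the 14 classes. Bdnf was highest in mossy cells (121 ± 1.9 CPM, SD, n = 2), followed by CA3 (67.9 ± 1.49), DG (58.4 ± 2.31) and CA1 (58.0 ± 2.18) neurons, of which DG and CA1 overlapped. It was lowest in interneurons (10.6 ± 0.208 CPM), inhibitory neurons that are known to make little of it. Ntf3 was highest in CA2 pyramidal neurons (77.0 ± 12.4 CPM) and DG neurons (60.0 ± 1.68), and CA1, CA3 and mossy cells were at 2.22 to 3.84 CPM. Ntrk2 was highest in astrocytes (1131 ± 40.8 CPM), where a truncated TrkB without the kinase domain is the known product, and then in Cajal-Retzius cells (901 ± 110) and interneurons (729 ± 2.01). Ntrk3 was highest in DG neurons (1232 ± 19.6 CPM), and mossy cells came next (895 ± 18.8). Sort1 had the smallest ratio of highest to lowest level of these 7 genes, from 77.7 ± 5.59 CPM in oligodendrocyte precursors to 283 ± 3.24 in oligodendrocytes. Sorcs1 was highest in oligodendrocyte precursors (740 ± 67.6 CPM) and oligodendrocytes (724 ± 35.4), whose libraries overlapped, and was at 24.2 ± 0.6 in DG neurons. Sorcs3 was highest in CA1 neurons (601 ± 36.9 CPM) and then in oligodendrocyte precursors (475 ± 48.9), and was at 106 ± 5.41 in DG neurons. Levels in glia stand beside a level of granule neuron markers there: the 5 DG marker genes, Prox1 among them, summed to 472 to 577 CPM in astrocytes and 224 to 335 CPM in oligodendrocytes, against 1285 to 1600 CPM in DG neurons. In microglia they summed to 677 and 609 CPM in WT against 137 and 706 in KI, beside a Bdnf level of 53.2 and 47.0 CPM in WT against 45.8 and 134 in KI. The part of RNA from other cells in the glial levels of Bdnf or Ntf3 was not tested.

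**Figure D1:**
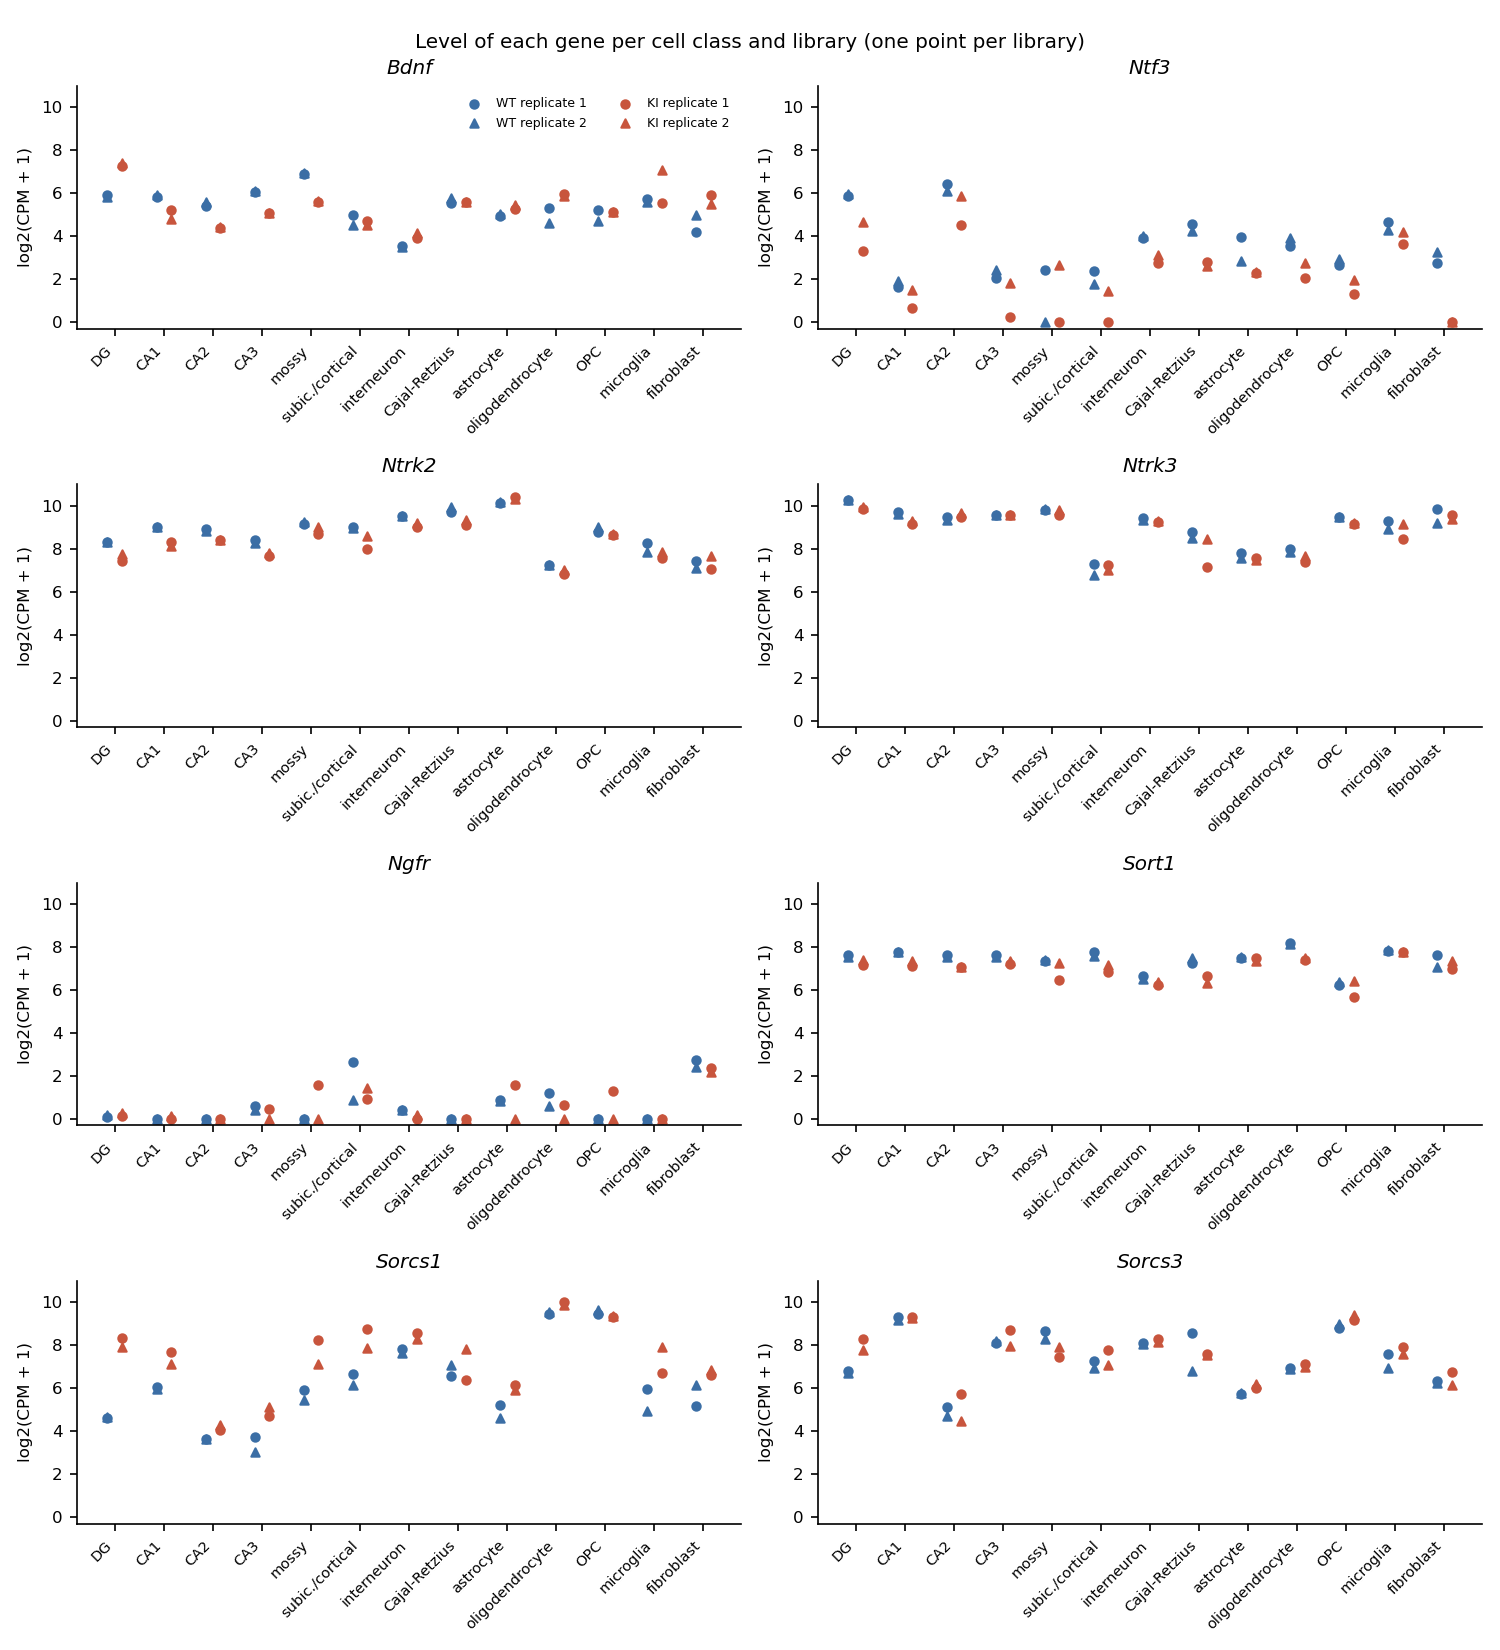
Level of each of the 8 genes, as log2(CPM + 1), in the 14 cell classes except mural cells, with 1 point per library (blue for WT, red for KI, circle for replicate 1, triangle for replicate 2). Bdnf in DG neurons and Sorcs1 in DG, mossy and subicular or cortical neurons stand higher in both KI libraries, and Ntf3 in DG neurons stands lower in both.

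The first comparison asked how the heterozygous mutation goes with the level of each gene within a class. In DG neurons 3 of the 7 genes that passed the filter on low counts were higher in KI (Bdnf, Sorcs1, Sorcs3) and 2 were lower (Ntf3, Ntrk2). Of the 16339 genes tested in that class 9.96% passed the threshold, 4.93% higher and 5.04% lower. In CA1 neurons 1 was higher (Sorcs1) and 4 were lower (Bdnf, Ntrk2, Ntrk3, Sort1), against 6.77% of genes, 4.14% higher and 2.63% lower. In CA3 neurons 1 was higher (Sorcs1) and 2 were lower (Bdnf, Ntrk2), against 3.06%, 1.9% higher and 1.16% lower. In mossy cells Sorcs1 was higher and Bdnf lower, against 0.931% of genes, 0.665% higher and 0.266% lower. In CA2 neurons Bdnf was lower, against 2.1% of genes called and 0.768% lower. Sorcs1 was higher in subicular or cortical excitatory neurons (background 1.4%, 0.562% higher), in interneurons (1.54%, 1.02% higher) and over all nuclei (0.889%, 0.506% higher). No member passed the threshold in astrocytes (background 0.325%), oligodendrocytes (0.899%), oligodendrocyte precursors (1.43%), glia as 1 group (0.0719%) or Cajal-Retzius cells, microglia, mural cells and fibroblasts (0.0% each). Each class was tested by the quasi-likelihood method of edgeR, and p-values were adjusted after Benjamini and Hochberg over every gene tested in it. A value under 0.05 counted as called. With 2 mice per genotype, the spread between mice behind each p-value was estimated with information shared across the genes of the class.

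**Figure D2:**
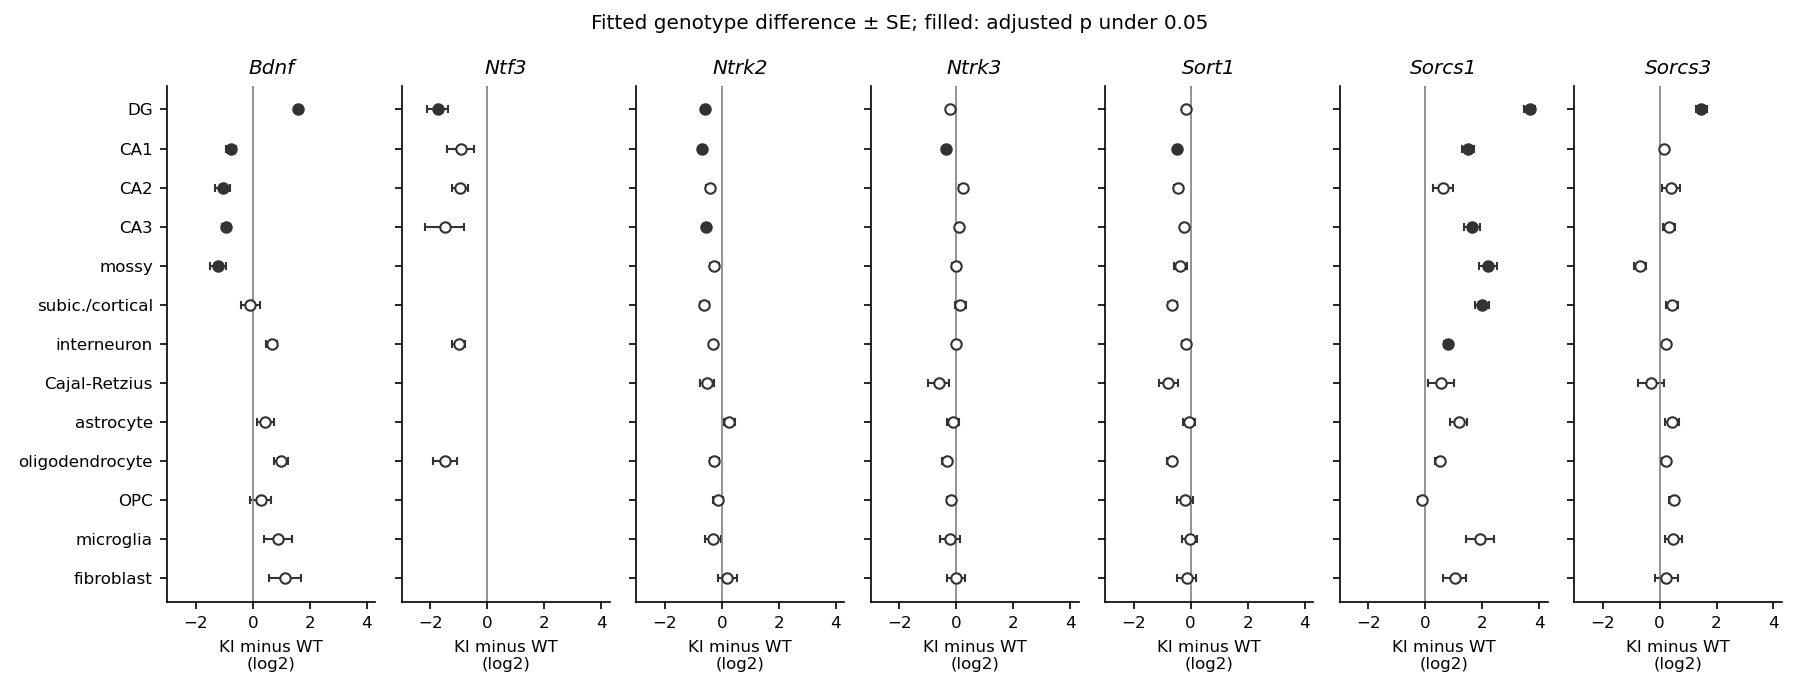
Fitted KI minus WT difference (log2, point and SE bar) of 7 genes in the 14 classes except mural cells, with filled points where the adjusted p was under 0.05. Sorcs1 lies above 0 in 12 of 13 classes fitted, Ntf3 below 0 in 6 of 6, and Bdnf spans -1.22 in mossy cells to 1.60 in DG neurons.

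Bdnf was the ligand that differed in opposite directions between classes. In DG neurons it was at 60.1 and 56.8 CPM in WT against 152 and 171 in KI, and the groups were far apart. The fit put KI 3.03-fold higher (log2 difference 1.60 ± 0.10, SE, adjusted p = 0.00173), and leaving out any 1 library kept it between 1.55 and 1.65. The share of DG nuclei with at least 1 Bdnf UMI was 18.4% and 20% in WT and 47.2% and 47.0% in KI. With each nucleus thinned to 2000 UMIs it was 9.95% and 10.8% against 26.4% and 29.3%. In interneurons, the class with the lowest level, the unthinned share was 6.24% and 5.95% in WT and 10.1% and 9.64% in KI. These shares and CPM values carry counting error only within a library.

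In pyramidal neurons and mossy cells Bdnf stood lower in KI. CA3 neurons had 66.9 and 69.0 CPM in WT against 33.6 and 33.5 in KI (-0.93 ± 0.14, adjusted p = 0.0175). Mossy cells had 120 and 122 CPM in WT against 47.2 and 49.2 in KI (-1.22 ± 0.27, adjusted p = 0.0295). The same order was seen in CA1 neurons, with 56.4 and 59.5 CPM against 36.3 and 27.4 (-0.77 ± 0.18, adjusted p = 0.0462), and in CA2 neurons, with 41.7 and 47.2 CPM against 19.8 and 20.6 (-1.06 ± 0.26, adjusted p = 0.0353). In all 4 classes both KI libraries lay below both WT libraries. These 4 calls were lost when either WT library was left out, with adjusted p of 0.0687 and 0.0731 in CA3, 0.112 and 0.202 in mossy cells, 0.246 and 0.277 in CA2, and 0.617 and 0.659 in CA1. The call in mossy cells was also lost without KI replicate 1 (adjusted p = 0.0949). With nuclei assigned one by one by their markers instead of by cluster, the difference was -0.39 in CA3 and -0.19 in CA1, and it turned to 0.51 in CA2 and 0.16 in mossy cells, none past the threshold. In interneurons Bdnf was at 10.7 and 10.4 CPM against 14.1 and 17.1 (0.66 ± 0.20, adjusted p = 0.126), and in oligodendrocytes at 38.7 and 23.6 CPM against 62.0 and 58.9 (1.0 ± 0.24, adjusted p = 0.0937).

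Most of the CA3 difference in Bdnf sat in a small cluster. Cluster 3.8, whose leading genes include the activity-induced genes Nr4a3, Ptgs2, Pcsk1 and Bdnf itself, held 10.1% and 11.1% of CA3 nuclei in WT and 1.68% and 3.46% in KI. It held 63.9% and 79.3% of the CA3 Bdnf UMIs in WT (315 of 493 and 322 of 406) and 4.3% and 8.45% in KI (8 of 186 and 12 of 142). Bdnf in that cluster was at 312 and 352 CPM in WT against 57.0 and 44.3 in KI. Outside it the order of the groups turned, with 28.0 and 16.9 CPM in WT against 33.0 and 32.8 in KI. The cluster's median doublet score was 0.0848 and its nuclei held a median 2.7 times the UMIs of their libraries, so the part that doublets play in it was not tested. The share of all CA3 nuclei with a Bdnf UMI was 22.1% and 19.0% in WT and 24.3% and 20.9% in KI, while nuclei with any held a mean of 2.43 and 3.59 UMIs in WT and 1.43 and 1.38 in KI. The highest nucleus held 16 and 34 Bdnf UMIs in WT and 10 and 8 in KI. These values describe clusters found in the same nuclei and carry no test.

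**Figure D3:**
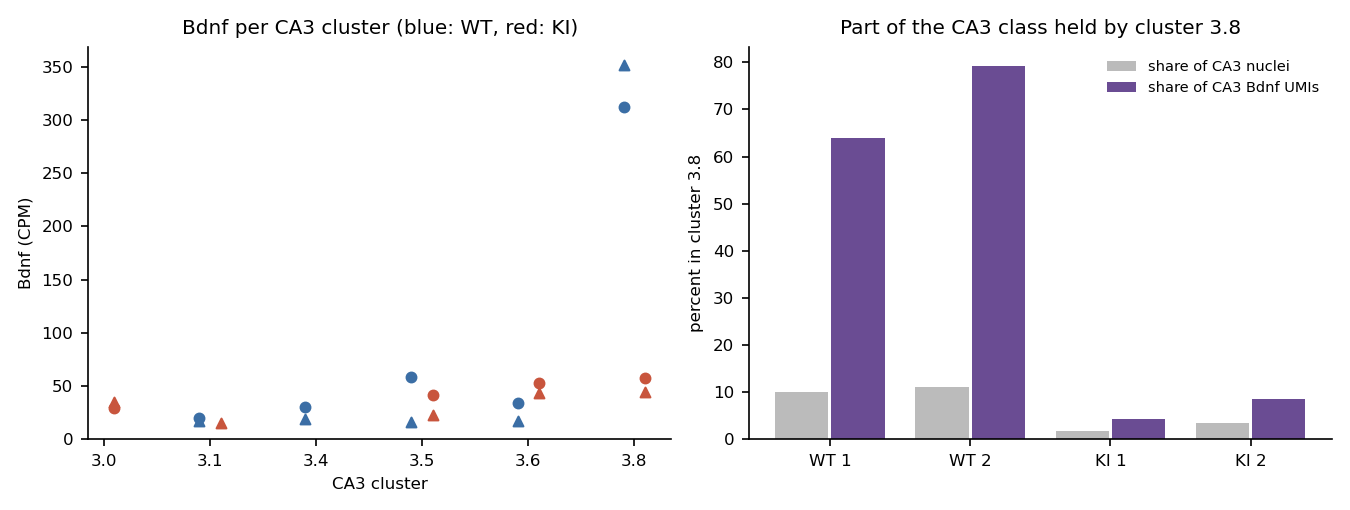
Left, Bdnf level (CPM) in 6 CA3 clusters per library (blue for WT, red for KI, circle for replicate 1, triangle for replicate 2, libraries with under 5 nuclei in a cluster not drawn), and right, the percentage of CA3 nuclei (grey) and of CA3 Bdnf UMIs (purple) in cluster 3.8. The WT libraries reach 312 and 352 CPM in cluster 3.8, which holds 10.1% and 11.1% of their CA3 nuclei and 63.9% and 79.3% of their CA3 Bdnf UMIs.

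Bdnf is transcribed from several promoters that respond differently to activity, and the transcripts share the last exon, so 3' end counts cannot tell the promoters apart. The RefSeq promoter table used matched 6 of the 8 members, with 7 start sites for Bdnf, 2 for Ntf3 and 1 each for Ngfr, Ntrk2, Sorcs1 and Sorcs3. Ntrk3 and Sort1 were not searched. The 5 sequences shown are the 250 bases before a start (GRCm38.p6, read on the gene's strand, 5′ to 3′), shown for the 2 Bdnf windows and the Ntf3 window that hold a searched motif, which is in capitals, and for Sorcs1 and Sorcs3, the sortilin relatives that were higher in KI in DG neurons.
Bdnf, chr2:109676782-109677031: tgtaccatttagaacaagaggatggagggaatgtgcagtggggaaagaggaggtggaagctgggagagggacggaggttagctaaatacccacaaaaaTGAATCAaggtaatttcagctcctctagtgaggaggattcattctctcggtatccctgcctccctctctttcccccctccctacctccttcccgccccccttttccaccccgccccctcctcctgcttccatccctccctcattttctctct
Bdnf, chr2:109692186-109692435: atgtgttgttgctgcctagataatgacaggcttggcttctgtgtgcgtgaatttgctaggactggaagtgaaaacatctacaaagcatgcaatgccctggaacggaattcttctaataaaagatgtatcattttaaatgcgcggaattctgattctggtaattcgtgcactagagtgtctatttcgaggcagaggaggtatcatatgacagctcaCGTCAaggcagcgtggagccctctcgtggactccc
Ntf3, chr6:126166745-126166994, minus strand: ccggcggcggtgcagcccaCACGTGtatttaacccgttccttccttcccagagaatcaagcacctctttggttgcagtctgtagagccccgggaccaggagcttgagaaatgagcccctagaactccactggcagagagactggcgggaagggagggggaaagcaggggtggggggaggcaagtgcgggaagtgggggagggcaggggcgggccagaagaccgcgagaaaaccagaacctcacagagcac
Sorcs1, chr19:50678647-50678896, minus strand: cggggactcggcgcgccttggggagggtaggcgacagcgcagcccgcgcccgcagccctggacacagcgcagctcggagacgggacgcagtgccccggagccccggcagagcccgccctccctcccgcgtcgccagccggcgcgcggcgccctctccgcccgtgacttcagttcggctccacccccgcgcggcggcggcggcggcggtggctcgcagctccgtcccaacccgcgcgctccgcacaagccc
Sorcs3, chr19:48205775-48206024: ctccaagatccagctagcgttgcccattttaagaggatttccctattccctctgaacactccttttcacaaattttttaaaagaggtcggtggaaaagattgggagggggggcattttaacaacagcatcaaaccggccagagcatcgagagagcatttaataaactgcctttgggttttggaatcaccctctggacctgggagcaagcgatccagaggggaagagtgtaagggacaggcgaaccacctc
The motifs searched, on both strands, were the cAMP response element TGACGTCA and its shorter form TGACG, which is part of it, the AP-1 element TGANTCA and the E-box CACGTG. The first Bdnf window holds TGAATCA, 152 bases before the start, and the second holds CGTCA, the reverse complement of TGACG, 35 bases before the start. The Ntf3 window holds CACGTG 231 bases before its start. The other 10 of the 13 windows of these 6 genes held none of the 4 motifs. Of 32851 promoter windows of the same length, 1.55% held TGACGTCA, 17.8% TGACG, 6.75% TGANTCA and 6.02% CACGTG. The Sorcs1 window is 79.6% G and C and the Sorcs3 window 48.4%.

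Ntf3, the gene of NT-3, was lower in KI in DG neurons. DG neurons held 58.8 and 61.2 CPM in WT against 9.15 and 24.3 in KI (-1.74 ± 0.37, 0.3-fold, adjusted p = 0.0355). The KI mice differed from each other but both lay under both WT mice. This call was lost without WT replicate 1 (adjusted p = 0.111) and without WT replicate 2 (0.12), and with DESeq2 (-1.72, adjusted p = 0.0503), while without KI replicate 2 the difference was -2.54. The share of DG nuclei with an Ntf3 UMI was 19.8% and 22.4% in WT and 4.02% and 9.33% in KI, and after thinning 10.7% and 10.4% against 1.52% and 4.48%. In CA1 neurons, which hold little Ntf3 at a greater depth, the unthinned share was 1.16% and 1.81% in WT and 0.455% and 1.08% in KI. In CA2 neurons, the class with the highest WT level, Ntf3 was at 85.8 and 68.2 CPM in WT against 22.3 and 58.3 in KI (-0.95 ± 0.29, adjusted p = 0.0932). Interneurons held 14.1 and 15.3 CPM against 5.75 and 7.77 (-1.01 ± 0.23, adjusted p = 0.0611). The fitted difference was below 0 in 6 of 6 classes that passed the filter, of which 1 was called.

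Ntrk2, the gene of the BDNF receptor TrkB, stood lower in KI in 3 neuron classes. CA1 neurons held 512 and 518 CPM in WT against 317 and 283 in KI (-0.69 ± 0.11, adjusted p = 0.0163). DG neurons held 318 and 318 CPM against 172 and 218 (-0.58 ± 0.11, adjusted p = 0.0291), and CA3 neurons 340 and 311 CPM against 201 and 221 (-0.55 ± 0.11, adjusted p = 0.0346). Neither group overlapped the other in these classes. All 3 calls were lost without either WT library, with adjusted p between 0.143 and 0.659. Interneurons held 730 and 728 CPM against 521 and 581 (-0.30 ± 0.09, adjusted p = 0.121). Astrocytes, where Ntrk2 was most abundant, held 1102 and 1160 CPM in WT against 1358 and 1262 in KI (0.27 ± 0.18, adjusted p = 0.614). Counts at the gene level do not tell full-length from truncated TrkB.

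Ntrk3, the gene of TrkC, differed past the threshold in CA1 neurons alone among the 14 classes. CA1 neurons held 829 and 787 CPM in WT against 560 and 624 in KI (-0.37 ± 0.08, adjusted p = 0.0403). In DG neurons, where Ntrk3 was highest, the values were 1218 and 1246 CPM against 925 and 991 (-0.23 ± 0.07, adjusted p = 0.104). CA3 neurons held 767 and 750 CPM against 765 and 767 (0.09 ± 0.09, adjusted p = 0.623), and the groups overlapped. The CA1 call was lost without either WT library and with DESeq2 (adjusted p = 0.051). It was also lost at resolution 2.0 (0.0684), with no filter (0.0886) and with nuclei assigned one by one (0.144).

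Ngfr, the gene of p75, was close to undetected. In the adult brain p75 is best known on basal forebrain cholinergic neurons, whose axons reach the hippocampus but whose nuclei lie outside it. Over all nuclei Ngfr was at 0.345 and 0.241 CPM in WT against 0.208 and 0.136 in KI (-0.72 ± 0.43, adjusted p = 0.344), and it passed the filter in none of the 14 classes. Its level in fibroblasts was 5.78 and 4.35 CPM in WT against 4.23 and 3.48 in KI. Each of these values stands for 1 UMI, so their order follows only the depth of the class in each library. At this depth no difference in any class could be tested.

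Sort1, the gene of sortilin, stood lower in KI in CA1 neurons, with 217 and 217 CPM in WT against 136 and 162 in KI (-0.47 ± 0.09, adjusted p = 0.0318). That call was lost without WT replicate 1 (adjusted p = 0.659) or WT replicate 2 (0.617). Oligodendrocytes, the class with the highest WT level, held 286 and 281 CPM against 165 and 176 (-0.67 ± 0.15, adjusted p = 0.084). DG neurons held 197 and 187 CPM against 143 and 166 (-0.18 ± 0.10, adjusted p = 0.27).

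Sorcs1, a sortilin relative that binds and sorts receptors at the cell surface, showed the largest difference among the 8 genes. DG neurons held 23.8 and 24.6 CPM in WT against 318 and 240 in KI (3.67 ± 0.18, 12.7-fold, adjusted p = 0.000901). The value stayed between 3.41 and 3.89 when any 1 library was left out. The share of DG nuclei with a Sorcs1 UMI was 6.05% and 6.11% in WT and 59.1% and 46.7% in KI, and after thinning 3.54% and 3.14% against 39.0% and 31.9%. In CA2 neurons, where Sorcs1 is low, the unthinned share was 8.9% and 7.69% in WT and 13.1% and 10.7% in KI, at a median of 8148 to 10035 UMIs per nucleus against 3732 to 4412.5 in DG neurons. Mossy cells held 59.2 and 42.2 CPM against 301 and 137 (2.22 ± 0.31, adjusted p = 0.00118), and subicular or cortical excitatory neurons 101 and 70.9 CPM against 426 and 231 (2.00 ± 0.24, adjusted p = 0.000133). CA3 neurons held 12.3 and 7.13 CPM against 25.3 and 34.0 (1.65 ± 0.27, adjusted p = 0.0214), and CA1 neurons 65.6 and 62.2 CPM against 206 and 137 (1.52 ± 0.21, adjusted p = 0.0118). In these classes every KI library was above every WT library. The mossy cell difference was 1.48 without KI replicate 1. Interneurons held 229 and 198 CPM against 385 and 312 (0.81 ± 0.14, adjusted p = 0.0265). The interneuron call was lost without WT replicate 2 (adjusted p = 0.0826) and the CA1 call without WT replicate 1 (0.659) or WT replicate 2 (0.617). With nuclei assigned one by one, the difference was 1.04 in mossy cells, 0.87 in subicular or cortical neurons and 0.59 in interneurons, none past the threshold. With no filter the CA1 difference was 1.5 (adjusted p = 0.0819). In oligodendrocytes, one of the classes with the highest WT level, Sorcs1 was at 698 and 749 CPM against 1020 and 940 (0.51 ± 0.15, adjusted p = 0.167). Over all nuclei the values were 153 and 126 CPM against 339 and 355 (1.36 ± 0.11, adjusted p = 0.0367).

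Sorcs3, a close relative of Sorcs1 that lies on the same chromosome, was higher in KI in DG neurons. They held 109 and 102 CPM in WT against 308 and 221 in KI (1.47 ± 0.18, adjusted p = 0.00804), and without WT replicate 2 the adjusted p was 0.0502. CA1 neurons, which held the most in WT, had 627 and 575 CPM against 630 and 614 (0.14 ± 0.09, adjusted p = 0.404), and the groups overlapped. In mossy cells the values were 404 and 308 CPM against 175 and 238 (-0.70 ± 0.21, adjusted p = 0.123).

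The next comparison asked whether the KI minus WT difference itself differed between classes, for 6 pairs of classes (DG with CA1, CA3, mossy cells and interneurons, and CA1 with CA3 and interneurons). The interaction was tested across all genes with the library as a block, since the classes of 1 library come from 1 mouse. Bdnf passed in 5 of 6 pairs, Sorcs1 in 5, Sorcs3 in 4 and Ntrk3 in 2, and Ntf3, Ntrk2 and Sort1 in 0. The share of all genes past the threshold was 12.8% for DG with CA1, 8.96% for DG with CA3, 2.73% for DG with mossy cells, 8.64% for DG with interneurons, 2.64% for CA1 with CA3 and 5.08% for CA1 with interneurons. The Bdnf difference in DG neurons exceeded that in mossy cells by 2.84 ± 0.27 on the log2 scale (adjusted p = 4.1e-23), that in CA3 neurons by 2.53 ± 0.12 (6.81e-08) and that in CA1 neurons by 2.39 ± 0.16 (2.37e-06). For Sorcs1 the excess in DG neurons was 2.84 ± 0.12 over interneurons (3.34e-08) and 2.18 ± 0.11 over CA1 neurons (5.52e-07). For Sorcs3 it was 2.20 ± 0.19 over mossy cells (8.88e-28) and 1.32 ± 0.12 over CA1 neurons (2.25e-05). With nuclei assigned one by one, the Sorcs3 difference between DG neurons and mossy cells was 0.97 (adjusted p = 0.0801). The p-values rest on a spread shared across genes, so the very small ones for mossy cells do not rank those pairs as the best supported. The 6 pairs share DG or CA1 nuclei and are not independent. For Ntf3, Ntrk2 and Sort1 an adjusted p above 0.05 in every pair does not show that the classes behaved alike.

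DG neurons fell into 2 clusters that followed genotype. Cluster 2 held 5.49% and 6.88% of WT and 94.2% and 77.3% of KI granule nuclei, and cluster 0 held the others, although the 8 genes were not used to cluster. Within cluster 0 Bdnf was at 49.9 and 48.0 CPM in WT against 54.9 and 93.2 in KI, and within cluster 2 at 233 and 180 CPM in WT against 158 and 194 in KI. The few WT nuclei of cluster 2 had a Bdnf level of the same size as the KI nuclei beside them. Sorcs1 was at 13.9 and 10.4 CPM (WT) and 41.9 and 55.0 CPM (KI) in cluster 0, and at 191 and 224 CPM (WT) and 335 and 297 CPM (KI) in cluster 2. Sorcs3 in cluster 2 was higher in WT, with 1175 and 1006 CPM against 323 and 268, while in cluster 0 it was at 46.7 and 37.4 CPM against 60.6 and 70.8. Ntf3 in cluster 2 was at 67.7 and 63.4 CPM in WT against 7.93 and 18.3 in KI, and in cluster 0 at 58.3 and 61.1 CPM against 28.9 and 44.0. Thus within cluster 2 Ntf3 kept the order it had over all DG neurons and Sorcs3 did not. Ntrk2 in cluster 2 was at 481 and 403 CPM in WT against 170 and 201 in KI.

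Other genes looked at by cluster were Arc, Fos, Nr4a3, Nptx2, Prox1 and C1ql2. The values of Fos and of C1ql2, which is in the DG marker list, are not given here. Arc, an immediate early gene, was at 30.3 and 19.8 CPM in the WT part of cluster 2 and 1.34 and 1.08 CPM in the KI part, and at 3.75 and 2.82 CPM in the WT part of cluster 0. Nr4a3, also an immediate early gene, was at 51.5 and 35.7 CPM in the WT part of cluster 2 and 3.39 and 3.66 CPM in the KI part, and at 10.0 and 5.92 CPM in the WT part of cluster 0. Nptx2, an activity-induced synaptic protein, was at 27.3 and 33.7 CPM in the WT part of cluster 2 and 10.8 and 17.1 CPM in the KI part, and at 1.9 and 2.19 CPM in the WT part of cluster 0. Between the clusters that held most nuclei of each genotype, Arc and Nr4a3 were thus lower in KI and Nptx2 higher. Prox1, which marks granule neurons, was at 219 and 230 CPM (WT) and 235 and 201 CPM (KI) in cluster 2, and 282 and 299 CPM (WT) and 308 and 281 CPM (KI) in cluster 0. Arc, Nr4a3, Nptx2 and Prox1 were chosen after their values were seen, and the values by cluster carry no test.

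**Figure D4:**
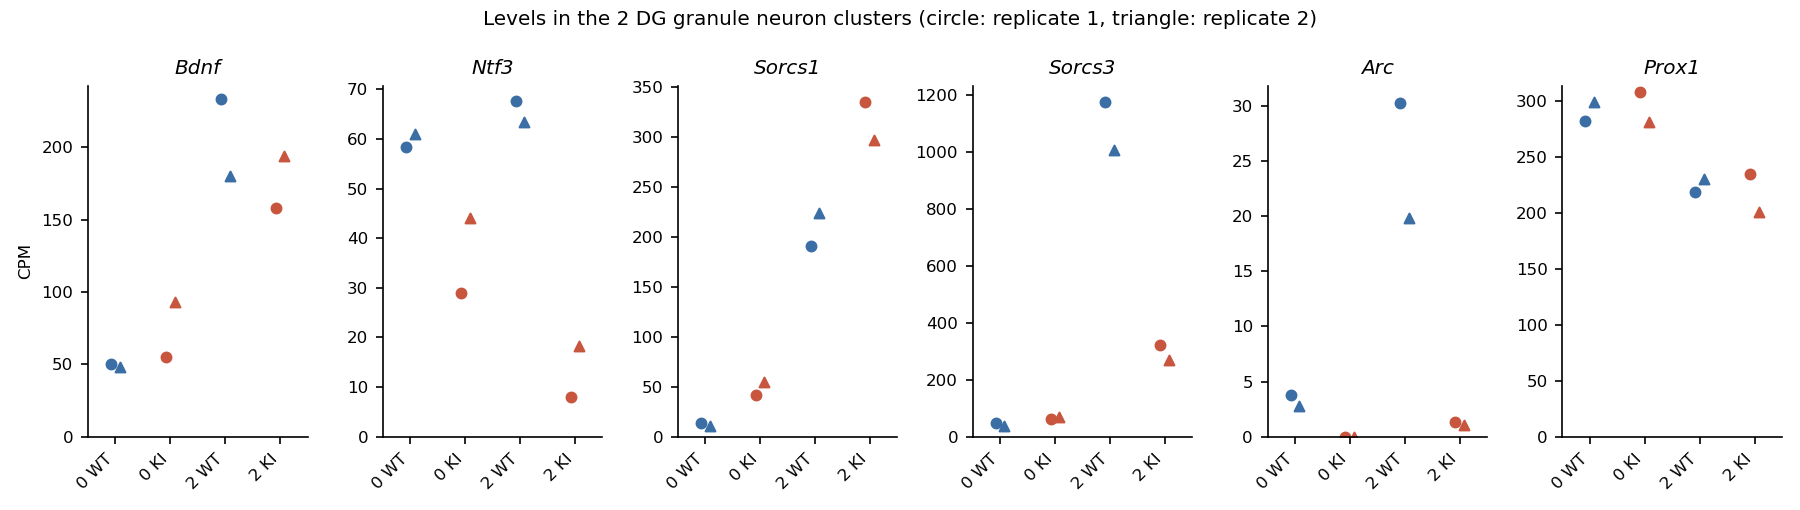
Level (CPM) of 4 members and of Arc and Prox1 in the 2 DG granule neuron clusters, per genotype and library (blue for WT, red for KI, circle for replicate 1, triangle for replicate 2). Bdnf and Sorcs1 are higher in cluster 2 in both genotypes, whereas Sorcs3 and Arc are highest in the WT nuclei of cluster 2.

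Clusters split by genotype in other classes too. Oligodendrocyte cluster 4 held 1998 and 1226 nuclei in WT and 46 and 222 in KI, and cluster 5 held 28 and 2 in WT and 2057 and 633 in KI. CA3 cluster 3.0 held 1 and 2 nuclei in WT and 394 and 315 in KI, cluster 3.1 held 338 and 285 in WT and 0 and 31 in KI, and cluster 3.4 held 319 and 106 in WT and 0 and 1 in KI. Oligodendrocyte precursors (cluster 13.0 mostly WT, 13.1 mostly KI) and astrocytes (10.0 mostly WT, 10.2 mostly KI) split as well. CA1 neurons formed 1 cluster at the resolution used, but at resolution 2.0 one named CA1 cluster held 667 and 567 nuclei in WT and 54 and 82 in KI. At that resolution an unnamed cluster held 54 and 47 nuclei in WT and 752 and 622 in KI, and the CA1 class fell from 1320 and 1486 nuclei in KI to 747 and 1035. The comparisons of these classes therefore set partly different clusters side by side.

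Interneurons were divided into 5 subtypes by marker genes, with 63 to 273 nuclei per library, and 232 to 320 interneuron nuclei per library were given no subtype. Ntrk3 was highest in the Pvalb subtype, the fast-spiking basket and axo-axonic cells, with 1321 and 1232 CPM in WT against 1059 and 1125 in KI, where the other 4 subtypes held 359 to 487 CPM. Ntf3 was highest in the Lamp5 subtype (neurogliaform and ivy cells), at 25.4 and 29.9 CPM in WT against 10.4 and 7.74 in KI, and then in the Pvalb subtype, at 14.8 and 15.7 CPM against 3.44 and 2.52. Sorcs1 was highest in the Vip subtype, at 503 and 566 CPM against 1404 and 736, and lowest in the Sst and Pvalb subtypes. Sorcs3 too was highest in the Vip subtype, at 1002 and 1306 CPM in WT against 1279 and 1223 in KI, and the groups overlapped. Ntrk2 in the Lamp5 subtype was at 980 and 939 CPM in WT against 543 and 680 in KI. The subtypes were not tested one by one.

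**Figure D5:**
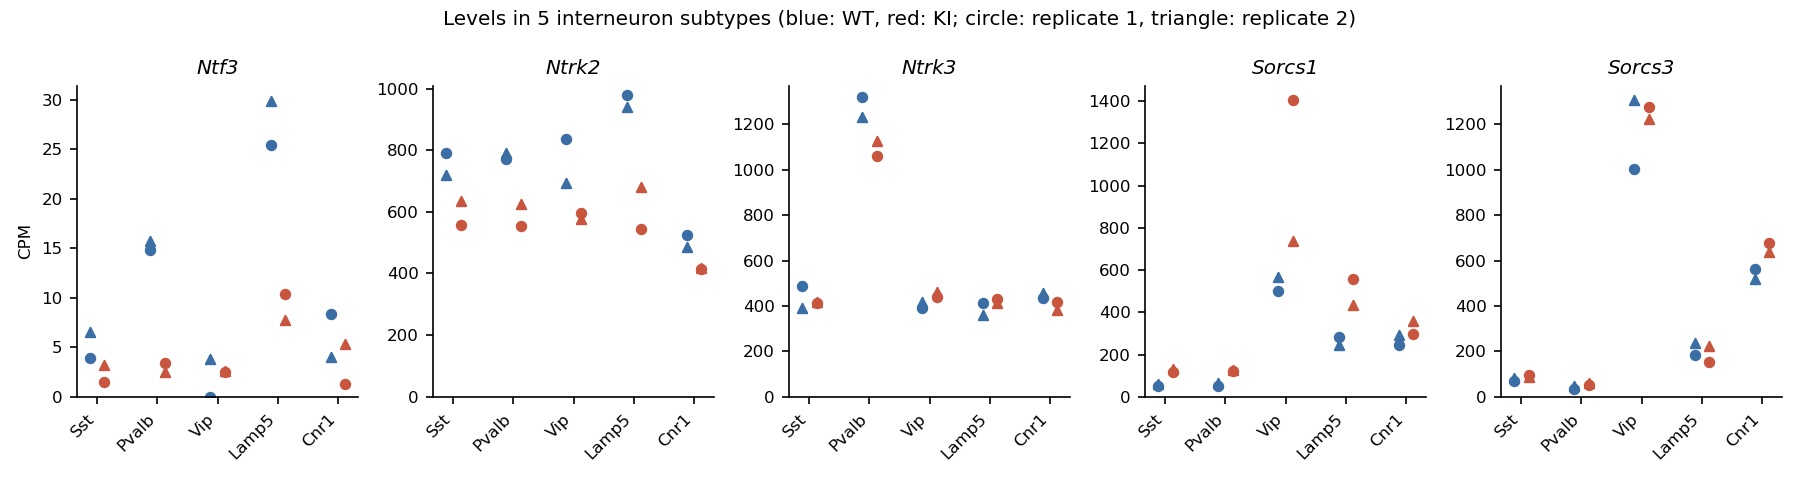
Level (CPM) of 5 members in 5 interneuron subtypes, with 1 point per library (blue for WT, red for KI, circle for replicate 1, triangle for replicate 2). Ntrk3 stands out in the Pvalb subtype at 1059 to 1321 CPM, and Sorcs1 and Sorcs3 in the Vip subtype.

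For 62 further genes of neurotrophin signalling the shares called were set against those of all genes. In DG neurons 1 of 59 tested was higher and 5 were lower (10.2% called, near the 9.96% of all genes in that class, with a median log2 difference of 0.00 in both). Sorcs2, which pairs with p75 as a receptor for the BDNF precursor, was at 135 and 152 CPM in WT against 43.1 and 54.6 in KI (-1.42 ± 0.13, adjusted p = 0.00355). Mapk7, the kinase ERK5, was at 10.6 and 11.7 CPM against 3.52 and 3.52 (-1.52 ± 0.20, adjusted p = 0.00873), and Camk4, a kinase of CREB, at 61.8 and 62.8 CPM against 24.5 and 31.5 (-1.02 ± 0.13, adjusted p = 0.00882). Plat, tissue plasminogen activator, which starts the cleavage of the BDNF precursor, was higher, at 23.5 and 22.8 CPM against 32.6 and 30.4 (0.58 ± 0.13, adjusted p = 0.0425). The Plat call in DG neurons was lost when nuclei were thinned to equal depth, with library totals and without either WT library, and without either WT library the count of lower genes was 1. In CA1 neurons 2 of 58 were higher and 0 lower (3.45%, against 6.77% of all genes), and in CA3 neurons 2 of 58 were higher and 1 lower (5.17%, against 3.06%). Sorcs2 differed in the other direction there, at 31.7 and 35.5 CPM in WT against 61.7 and 104 in KI in CA1 (1.38 ± 0.21, adjusted p = 0.0146), and at 45 and 56.6 CPM against 91.3 and 130 in CA3 (1.20 ± 0.18, adjusted p = 0.0176). Lingo2, a relative of the p75 partner Lingo1, was higher in CA1 neurons (365 and 358 CPM against 634 and 497, 0.74 ± 0.15, adjusted p = 0.0307) and in CA3 neurons (823 and 850 CPM against 1142 and 1150, 0.53 ± 0.09, adjusted p = 0.0233). In CA1 neurons both calls were lost at resolution 2.0, with nuclei assigned one by one, with no filter and without either WT library. In CA3 neurons 1 gene was called higher with nuclei assigned one by one and without either WT library. Shc3, a neuronal adaptor of Trk receptors, was lower in CA3 neurons, at 67.5 and 51.6 CPM against 25.1 and 28.8 (-1.07 ± 0.18, adjusted p = 0.0233), a call lost without WT replicate 1. The Sorcs2 difference in DG neurons was lower than that in CA1 by a log2 value of -2.76 ± 0.13 (adjusted p = 2.58e-07). In interneurons 1 of 59 was higher (Plat, 1.30 ± 0.23, adjusted p = 0.0287, 1.69% called against 1.54% of all genes), and 0 without either WT library. Ntf5, the gene of neurotrophin-4, had 44 UMIs in all nuclei together, and was picked after its value was seen.

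The genes whose levels followed a member most closely were ranked by Pearson's r of log2(CPM + 1) over 56 points, the 14 classes in 4 libraries. Points of 1 library share its mouse and depth, and r is given as a description. Bdnf was followed at r = 0.57 by Slc26a4, Smoc2 and Baiap2, and Ntf3 at 0.71 by Capn3. Ntrk2 was followed by Wnk2 (0.85), and Ntrk3 by Auts2 (0.82). The closest genes were Slc17a7, the vesicular glutamate transporter of excitatory neurons, for Sort1 (0.68), Sox2ot for Sorcs1 (0.73) and Syt16 for Sorcs3 (0.7).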

How the data were processed

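Nuclear RNA of the hippocampus was sequenced with 10x Genomics 3' v3 chemistry in 4 libraries, 1 mouse each. The authors deposited, per library, a matrix of raw UMI counts per gene and nucleus, made with Cell Ranger 7.0.1 per the file headers on mm10. The annotation and whether intronic reads were counted are not given in the sources used here. Groups came from the sample titles.

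Nuclei with at least 500 genes, at most 5% mitochondrial counts and a Scrublet doublet score of at most 0.25 were kept (Python 3.11.15, scanpy 1.11.5, leidenalg 0.10.2). Counts were scaled to 10000, and 2000 variable genes without the 8 members and the pathway genes, 30 principal components and 20 neighbours gave clusters at resolution 1.0. These were named from marker lists when at least 3 markers were raised. Clusters with a median doublet score over 0.15 stayed unnamed. So did those with at least 90% of a second list raised, or a mean log2 rise under 1.25 times that of the second list. A weaker second list did not bar a name, and the mossy cell cluster had mean rises of 2.05 for its own list and 1.36 for the CA3 list. These naming limits were set after the clusters were seen. The members and lists were chosen with earlier results of these data known. UMIs were summed per library and class and tested across all genes with edgeR 4.0.16 (filterByExpr, TMM, quasi-likelihood F test, R 4.3.3) on the 2 WT and 2 KI libraries of a class without a covariate, and differences between classes as an interaction with the library as a block. Benjamini-Hochberg adjusted p under 0.05 was the threshold. The genes named in the text were the 8 members, up to 3 pathway genes per direction and class past the threshold, and the 3 genes most like each member, plus those said to be chosen after their values were seen. Some of these genes are not reported here. Shares, given also with each nucleus thinned to 2000 UMIs, have exact binomial 95% intervals, and these, like CPM, cover counting error only. Counts were simulated with 200 genes changed by 1 on the log2 scale, up or down, and the same spread between libraries for all genes. Of these genes 64% were recovered in DG neurons, 70.5% in CA1 neurons and 36.5% in mossy cells, with 1.54%, 6.62% and 5.19% false among calls. For the interaction of DG and CA1 71.5% were recovered (6.54% false). The rates do not carry over to smaller differences. Each library is 1 mouse and counted as 1 replicate, and no 2 libraries of a genotype held the same counts (chi-square per degree of freedom over genes 16.5 for WT and 46.3 for KI). Replicate numbers did not pair the mice. Alternatives were DESeq2 1.42.0, library totals, no filter, a doublet score of 0.15, 1000 genes, resolution 2.0, nuclei assigned one by one by markers, class sums thinned to equal totals, the replicate block and leaving out each library.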

Additional observations from a re-analysis of the deposited data

Results flagged for a closer look

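In 16 instances the KI minus WT difference of a member differed between 2 classes by the interaction test across all genes (edgeR, Benjamini-Hochberg adjusted p, 2 mice per genotype). The values are log2 differences of the first class minus the second, with SE.

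Bdnf, which rose in DG granule neurons and stood lower in CA1, CA2, CA3 and mossy cells (with nuclei assigned one by one the difference turned to 0.51 in CA2 and 0.16 in mossy cells), differed between DG and mossy cells by 2.84 ± 0.27 (adjusted p = 4.1e-23), between DG and CA3 neurons by 2.53 ± 0.12 (6.81e-08), between DG and CA1 neurons by 2.39 ± 0.16 (2.37e-06) and between DG neurons and interneurons by 0.93 ± 0.17 (0.00293). Between CA1 neurons and interneurons it was -1.47 ± 0.22 (0.00024), and -0.66 (0.174) with nuclei assigned one by one by their markers.

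Sorcs1, the sortilin relative with the largest rise, differed between DG neurons and interneurons by 2.84 ± 0.12 (3.34e-08), between DG and CA1 neurons by 2.18 ± 0.11 (5.52e-07), between DG and CA3 neurons by 2.03 ± 0.30 (0.000626) and between DG neurons and mossy cells by 1.52 ± 0.27 (2.17e-06). Between CA1 neurons and interneurons it was 0.67 ± 0.13 (0.0024). Without WT replicate 1 the adjusted p of these last 2 values was 0.203 (difference 1.17) and 0.0585, and the latter was 0.0528 with nuclei assigned one by one.

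Sorcs3 differed between DG neurons and mossy cells by 2.20 ± 0.19 (8.88e-28), between DG and CA1 neurons by 1.32 ± 0.12 (2.25e-05), between DG neurons and interneurons by 1.20 ± 0.12 (3.2e-05) and between DG and CA3 neurons by 1.16 ± 0.12 (3.3e-05). With nuclei assigned one by one the value for mossy cells was 0.97 (0.0801). For Ntrk3 the value was -0.45 ± 0.09 between CA1 and CA3 neurons (0.0073) and -0.38 ± 0.10 between CA1 neurons and interneurons (0.0322). Both Ntrk3 calls were lost without WT replicate 1 (0.264 and 0.251), without WT replicate 2 (0.252 and 0.458) and with DESeq2 (0.0993 and 0.284), and the second also with nuclei assigned one by one (0.306) and at resolution 2.0 (0.0677).

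Where mossy cells enter, a class of 39 to 85 nuclei per library is compared with one of 2209 to 4279, and DG nuclei of the 2 genotypes lie mostly in different clusters (94.2% and 77.3% of KI and 5.49% and 6.88% of WT granule nuclei in cluster 2). The p-values of the interaction rest on a spread shared across genes, so the smallest of them do not rank the pairs by evidence from the mice. The part that cluster membership has in these differences was not tested.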

How the results depend on the processing

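The sign and the call of Bdnf, Sorcs1 and Sorcs3 in DG neurons and of Sorcs1 in CA3 neurons held under all 9 processing alternatives. Leaving out 1 library kept them too, except Sorcs3 in DG neurons (1.17 to 1.71), whose adjusted p was 0.0502 without WT replicate 2. Leaving out a library leaves 1 mouse in an arm, which is then assumed to vary like the other genotype. KI mice differed from each other more than WT mice did. Leaving out a WT library lost calls in most classes, and leaving out a KI library added some and lost Bdnf in mossy cells (KI replicate 1, adjusted p = 0.0949).

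Log2 differences that lost the threshold (cause not tested) were as follows. With DESeq2 these were Ntf3 in DG (-1.72), Ntrk3 in CA1 (-0.37) and Bdnf in mossy cells (-1.22), and Bdnf in CA2 got no adjusted p. At resolution 2.0 they were Bdnf (-0.66), Ntrk2 (-0.45), Ntrk3 (-0.31) and Sort1 (-0.31) in CA1 and Ntrk2 in CA3 (-0.49). With nuclei assigned one by one they were Bdnf (-0.19), Ntrk3 (-0.32) and Sort1 (-0.42) in CA1, Bdnf (-0.39) and Ntrk2 (-0.49) in CA3, and Sorcs1 in mossy cells (1.04), subicular or cortical neurons (0.87) and interneurons (0.59). With no filter they were all 5 calls in CA1: Bdnf (-0.79), Ntrk2 (-0.71), Ntrk3 (-0.39), Sort1 (-0.49) and Sorcs1 (1.5). Thinning the class sums lost Bdnf in CA2 (-1.07) and mossy cells (-1.14) and Ntrk2 in CA3 (-0.54), and a doublet score of 0.15 lost Bdnf in mossy cells (-1.4).

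The direction turned for nuclei assigned one by one in CA2 (Bdnf 0.51, Ntrk3 -0.1), mossy cells (Bdnf 0.16, Sorcs3 0.44), subicular or cortical neurons (Ntrk3 -0.47) and interneurons (Ntrk3 -0.02). Ntrk3 in interneurons was also -0.01 thinned, -0.1 with library totals and -0.02 with no filter. Ntrk3 was 0.08 in mossy cells at a doublet score of 0.15 and 0.39 in oligodendrocytes at resolution 2.0, where Sorcs3 in CA2 was -0.54. Sort1 in astrocytes was 0.00 with at least 1000 genes. Apart from Bdnf in CA2 and mossy cells, none of these was called to begin with.

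Leaving out each library gave these ranges of called differences. In DG Ntf3 ranged from -2.54 to -1.2 and Ntrk2 from -0.72 to -0.44. In CA1 Bdnf ranged from -1.06 to -0.54, Ntrk2 from -0.84 to -0.56, Ntrk3 from -0.41 to -0.34, Sort1 from -0.54 to -0.41 and Sorcs1 from 1.12 to 1.83. Bdnf ranged from -1.14 to -0.99 in CA2, -0.97 to -0.9 in CA3 and -1.25 to -1.2 in mossy cells, Ntrk2 in CA3 from -0.63 to -0.48 and Sorcs1 from 0.62 to 0.99 in interneurons, 1.48 to 2.63 in mossy cells, 1.45 to 2.42 in subicular or cortical neurons and 1.32 to 2.13 in CA3. Uncalled differences that crossed 0 were Sorcs3 in CA2 (-0.45 to 0.83) and CA3 (-0.15 to 0.69), Ntrk3 (-0.12 to 0.09) and Sort1 (-0.77 to 0.01) in mossy cells, Bdnf (-0.33 to 0.15) and Ntrk3 (-0.09 to 0.41) in subicular or cortical neurons, Ntrk3 in interneurons (-0.07 to 0.06) and Sort1 in astrocytes (-0.17 to 0.03).

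Counts of members called moved as follows. In DG 1 member was lower with DESeq2. In CA1 0 were higher and 0 lower with no filter, 0 lower at resolution 2.0 and 1 lower with nuclei assigned one by one. In CA2 the lower count was 2 at a doublet score of 0.15, with library totals and with no filter, and 0 thinned and with DESeq2, which gave Bdnf no adjusted p. In CA3 it was 1 at resolution 2.0 and thinned, and 0 with nuclei assigned one by one. In mossy cells it was 0 at a doublet score of 0.15, thinned, with DESeq2 and with nuclei assigned one by one, and 2 with no filter. With nuclei assigned one by one the higher count was 0 in mossy cells, subicular or cortical neurons and interneurons, and over all nuclei it was 2 with no filter and 3 with DESeq2. With 1 library left out, the lower count ranged from 0 to 4 in DG, CA2 and CA3, 0 to 5 in CA1 and 0 to 2 in mossy cells. The higher count ranged from 0 to 2 in CA1, 1 to 2 in CA3 and subicular or cortical neurons, 0 to 3 in interneurons and 1 to 3 over all nuclei.

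Of the other pathway genes in DG, 0 were higher when thinned or with library totals, and 3 were higher and 8 lower with no filter. The higher count in CA1 was 0 at resolution 2.0, with nuclei assigned one by one and with no filter. In CA3 1 was higher with nuclei assigned one by one, and 2 were lower with library totals and 4 with no filter. With no filter 2 were higher in interneurons and 2 in oligodendrocytes, where 0 were at resolution 2.0 or assigned one by one. In oligodendrocyte precursors 0 were lower when assigned one by one, thinned or with DESeq2. With 1 library left out the count ranged in DG from 0 to 15 higher and 1 to 13 lower, in CA1 from 0 to 9 higher, in CA3 from 1 to 13 higher and 0 to 10 lower, in interneurons from 0 to 9 higher, in oligodendrocytes from 1 to 9 higher and in oligodendrocyte precursors from 0 to 1 lower.

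Differences between classes that lost the threshold were, with nuclei assigned one by one, Sorcs3 in DG less mossy cells (0.97) and, in CA1 less interneurons, Bdnf (-0.66), Ntrk3 (-0.3) and Sorcs1 (0.89). Ntrk3 lost it with DESeq2 in CA1 less CA3 (-0.46) and in CA1 less interneurons (-0.37), and in the latter at resolution 2.0 (-0.33). With 1 library left out, Sorcs1 in DG less mossy cells ranged from 1.17 (lost without WT replicate 1) to 1.94, Sorcs1 in CA1 less interneurons from 0.5 to 0.84 (lost without WT replicate 1), and Ntrk3, lost without either WT library, from -0.51 to -0.4 in CA1 less CA3 and from -0.41 to -0.33 in CA1 less interneurons.

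Same-numbered mice shared only a number: the correlation of their deviations was -0.05 to 0.06 in most classes and 0.34 in mural cells, the smallest class tested. With the replicate block 2 members were lower in CA2 and 2 higher over all nuclei, and of the pathway genes 3 were higher and 9 lower in DG, 3 lower in CA3 and 2 higher in interneurons. Because the correlation was -0.14 in Cajal-Retzius cells and -0.17 in microglia, the crossed pairing was added after seeing the data, with 0 members lower in CA2, 2 lower in mossy cells and 0 higher over all nuclei, and, of pathway genes, 3 higher and 9 lower in DG, 3 lower in CA3, 2 higher in interneurons and 2 in oligodendrocytes. Depth limits Ngfr in every class and Ntf3 in 8 of the 14. Scaling by library totals moved the median difference of all genes by -0.14 in DG neurons and -0.11 in mossy cells.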

Other observations

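The unnamed clusters, which held 28.0% of the nuclei, were left out of every class but kept in the sums over all nuclei. Their Bdnf level was 38.4 and 39.7 CPM in WT against 46.3 and 58.4 in KI, and their Ntf3 level 17.1 and 17.0 CPM against 7.63 and 12.7. Ntrk2 was at 431 and 437 CPM against 280 and 286, Ntrk3 at 735 and 698 CPM against 526 and 642, and Ngfr at 6 and 6 UMIs against 4 and 3. Sort1 was at 188 and 180 CPM against 130 and 147, Sorcs1 at 288 and 178 CPM against 393 and 489, and Sorcs3 at 355 and 325 CPM against 456 and 457. These values were not tested.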
